A study of Mus musculus with 11 samples.

Results

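The microRNA (miRNA) miR-126 was followed through both of its arms, miR-126-3p and miR-126-5p, in small-RNA libraries of mouse liver. The members were the 2 entries of the deposited count table named mmu-miR-126-3p and mmu-miR-126-5p, out of 1281 mature miRNA names. Both came from 1 hairpin, and no entry carried the name miR-126b. Of the 11 libraries, 6 came from G4 p53-/- mice, which lack telomerase, have short telomeres and lack p53, and 5 came from G4 p53+/+ mice, which lack telomerase and have short telomeres but keep p53. All were on the C57/B6 background and untreated, and 50 mg of liver was used for RNA. The study sought miRNAs that depend on p53, and since both groups lack telomerase the comparison is of p53 status among mice with short telomeres. Libraries are called by the sample numbers of their titles, 6, 7, 8, 10, 11 and 12 for p53-/- and 1 to 5 for p53+/+. Every library also has an HA number of its own, whose meaning the labels do not give; it is below 500 for p53-/- libraries 6, 7 and 8 and above 500 for the other 3 p53-/- and all 5 p53+/+ libraries. Nothing in the labels says that the livers came from different animals, and p-values here reflect only how these libraries vary, which may be technical.

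A miRNA is cut from a hairpin precursor whose sides can each give a mature arm, called 5p and 3p. The arm loaded into an Argonaute protein pairs with messenger RNAs through its seed, the bases near its 5′ end, and represses them. miR-126 is best known from endothelial cells, the lining of blood vessels, where it is made from an intron of Egfl7, a gene for a secreted vascular protein. In mice and zebrafish the 3p arm represses Spred1 and the phosphoinositide 3-kinase subunit gene Pik3r2, which restrain signalling by vascular endothelial growth factor. In mouse endothelium the 5p arm is known to repress Dlk1, a Notch ligand. Liver is rich in sinusoidal endothelium, and miR-126 is also found in blood progenitors and platelets.

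The RefSeq sequence of the mature 3p arm and of its precursor are shown because the arm balance of this hairpin is the measurement described here. In the mature arm the capitals mark the seed, bases 2 to 8. In the hairpin they mark the 3p arm. RefSeq (build GRCm38.p6) held a mature sequence for 1 of the 2 arms, and miR-126-5p is given by name.
miR-126a-3p: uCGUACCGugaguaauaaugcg
Mir126a hairpin: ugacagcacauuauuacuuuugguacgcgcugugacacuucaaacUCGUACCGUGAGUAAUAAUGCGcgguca

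The hairpin lies on the plus strand of chromosome 2 at chr2:26591357-26591429 (GRCm38) and the 3p arm at chr2:26591402-26591423, bases 46 to 67 of the 73-base hairpin. GENCODE M21 places it inside Egfl7 (chr2:26580014-26593120), in an intron of 8 of the 19 annotated Egfl7 transcripts, 7 of them protein coding. It overlaps an exon of 1 retained-intron transcript, and the other 10 do not span it. RNAfold put 19 of the 22 bases of the 3p arm in base pairs. The 7-base seed of miR-126a-3p was shared with 0 other mature names among the 1679 in the RefSeq table. The RefSeq annotation also places a hairpin called Mir126b on the opposite strand, at chr2:26591363-26591420, within the span of Mir126a. The strand used in counting is not given, so whether reads of Mir126b entered the counts of miR-126 could not be checked.

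Total counts per library, each mature name taken once, ran from 2202415 to 6682492 in p53-/- and from 1905609 to 6448820 in p53+/+ livers. The shallow libraries were p53-/- 11 and p53+/+ 1 and 2. p53+/+ libraries 1 and 2 stood apart over all 388 tested miRNAs, at -10.3 and -12.9 on a first principal component (27.1% of the variance) where the others lay between -0.88 and 5.91, so the genotype differences are also given without them. The Trp53 transcript is not measured in a miRNA table. miR-34a-5p, a direct p53 target, averaged 7.13 ± 2.95 CPM (SD, n = 6) in p53-/- and 71.9 ± 32.4 CPM (SD, n = 5) in p53+/+ livers, with ranges that did not overlap.

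miR-126-3p was among the abundant miRNAs of these livers. Its count placed it 16th to 21st among all miRNAs in p53-/- libraries and 13th to 20th in p53+/+ libraries, while miR-126-5p lay between ranks 98 and 115 in p53-/- and between 82 and 108 in p53+/+. Both arms together made up 0.544% to 1.12% of the counts in p53-/- libraries and 0.641% to 1.28% in p53+/+ libraries, with means of 0.799 ± 0.213% (SD, n = 6) and 0.923 ± 0.261% (SD, n = 5). These shares differed by -0.12 points of percent, less than the libraries of either genotype vary (exact two-sided permutation p = 0.403). The 95% Wilson intervals of single libraries were narrow, 0.538% to 0.550% for p53-/- library 6 and 1.26% to 1.30% for p53+/+ library 2, and cover counting error only. In bulk liver RNA, fewer cells that express miR-126 and less miR-126 per cell cannot be told apart.

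The level of the 3p arm was similar in its range in both genotypes. miR-126-3p stood at 6325, 6133, 10208, 9178, 5640.5 and 10299 CPM in p53-/- libraries 6, 7, 8, 10, 11 and 12, and at 5769, 10668, 10488, 8609 and 8101 CPM in p53+/+ libraries 1 to 5. These CPM are counts scaled to a common library total after TMM, edgeR's correction for library composition. The groups overlapped almost fully: p53-/- libraries 6, 7 and 11 lay with p53+/+ library 1 at the low end, and p53-/- libraries 8 and 12 lay with p53+/+ libraries 2 and 3 at the high end. The means were 7964 ± 2163 CPM (SD, n = 6) in p53-/- and 8727 ± 2001 CPM (SD, n = 5) in p53+/+ livers. On the log2 scale the fold change, p53-/- over p53+/+, came to -0.13 (SE 0.21; 95% interval from -0.59 to 0.33) (edgeR, quasi-likelihood test: adjusted p = 0.785). Of the p53-/- libraries, 3 lay below the p53+/+ median and 3 above it, and an exact permutation test of log2 CPM gave p = 0.567.

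The 5p arm was lower on average in p53-/- livers but did not pass the test. miR-126-5p stood at 213, 158, 190.2, 190.2, 130.3 and 176 CPM in p53-/- libraries 6, 7, 8, 10, 11 and 12, and at 241, 344, 225, 185 and 174 CPM in p53+/+ libraries 1 to 5. The p53+/+ median of 225 CPM was above all 6 p53-/- values, yet the groups overlapped, since p53+/+ libraries 4 and 5 fell among the p53-/- values. The counts behind these levels were 357 to 1264 reads in p53-/- and 506 to 1345 reads in p53+/+ libraries. The means were 176 ± 29.0 CPM (SD, n = 6) and 234 ± 67.5 CPM (SD, n = 5). On the log2 scale the fold change came to -0.40 (SE 0.20; 95% interval from -0.83 to 0.02), with p = 0.0585 before and 0.304 after adjustment (edgeR, quasi-likelihood test), and the exact permutation test of log2 CPM gave p = 0.0779, where 0.00433 is the smallest the 462 splits allow.

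The 5p value shrank most without p53+/+ libraries 1 and 2 together, the shallow libraries with its highest levels. Without both, miR-126-5p was at -0.09 on the log2 scale (SE 0.18, adjusted p = 0.851 in edgeR). With library 2 alone left out it was -0.25 (adjusted p = 0.555 in edgeR), and with library 1 alone -0.38 (adjusted p = 0.506 in edgeR). Leaving out p53-/- library 11 gave -0.30 (adjusted p = 0.472 in edgeR). Removing the highest values of the higher group must shrink such a difference. For miR-126-3p the log2 fold change was -0.16 without p53+/+ libraries 1 and 2 (SE 0.20, adjusted p = 0.808 in edgeR). The third shallow library, p53-/- library 11, held the lowest level of both arms after TMM scaling. The part of depth in these values was not tested.

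**Figure D1:**
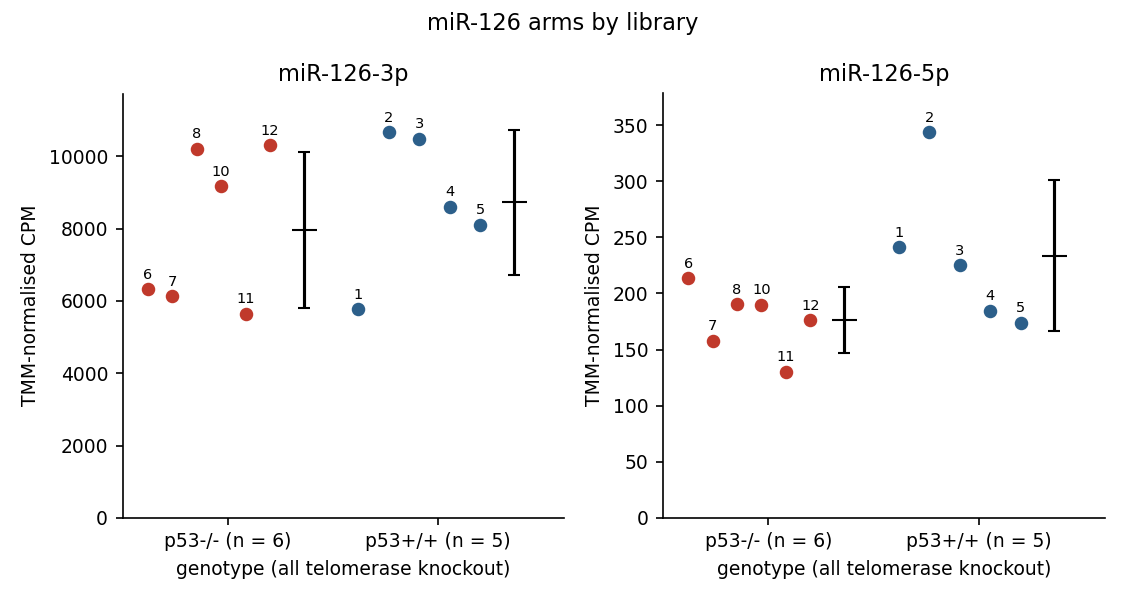
Level of miR-126-3p (left) and miR-126-5p (right) in TMM-normalised CPM on axes from 0, 1 point per library with its number, for 6 p53-/- and 5 p53+/+ libraries; bars give the mean and SD. The 3p ranges overlap almost fully, while all 6 p53-/- libraries of the 5p arm lie below the p53+/+ median of 225 CPM and p53+/+ library 2 stands highest at 344 CPM.

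Neither arm was called. Over all 388 miRNAs tested, edgeR called 1 (0.258%), which was miR-34a-5p at -3.33 on the log2 scale (SE 0.34, adjusted p = 7.07e-05 in edgeR), and limma-voom also called 1. At an unadjusted p below 0.05 there were 67 miRNAs (17.3%), without either arm of miR-126. DESeq2 was fitted to the same 388 miRNAs and gave 250 of them an adjusted p. It called 17 of these 250 (6.80%), again without either arm. The interval of miR-126-3p leaves room for changes of up to -0.59 on the log2 scale, so the test does not show that its level is the same in both genotypes.

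**Figure D2:**
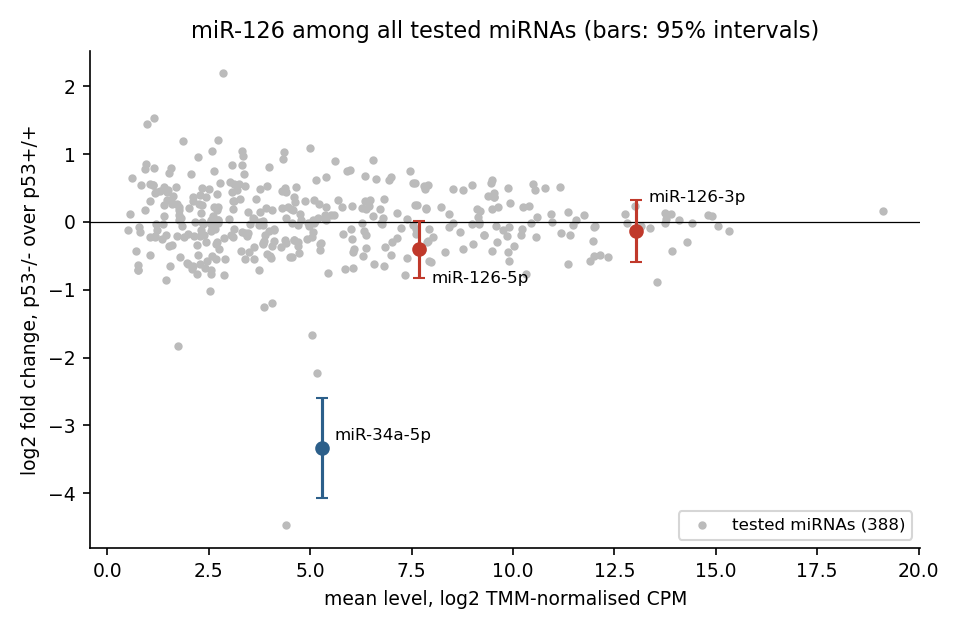
Log2 fold change, p53-/- over p53+/+, against the mean level in log2 TMM-normalised CPM for 388 tested miRNAs (grey), with both arms of miR-126 (red) and miR-34a-5p (blue) and their 95% intervals. The intervals of both miR-126 arms include 0, and miR-34a-5p lies at -3.33.

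The 3p arm was the main product of the hairpin in every library. It gave 29.6, 38.9, 53.7, 48.3, 43.3 and 58.4 reads per read of the 5p arm in p53-/- libraries 6, 7, 8, 10, 11 and 12, and 23.9, 31.0, 46.5, 46.7 and 46.5 in p53+/+ libraries 1 to 5. The 5p share of miR-126 reads was therefore small, from 1.68% (95% Wilson interval 1.59% to 1.78%) in p53-/- library 12 to 4.01% (3.68% to 4.37%) in p53+/+ library 1. In p53+/+ libraries 3, 4 and 5 the share was 2.10% each time. The libraries with a high share were p53+/+ 1 and 2, at 4.01% and 3.12%, and p53-/- 6, at 3.26%. The first pair were shallow libraries, while p53-/- library 6 held 5243933 counts and the shallow p53-/- library 11 had a share of 2.26%. The part of depth in the share was not tested.

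The arm balance did not differ between genotypes beyond the spread between libraries. The 5p share averaged 2.26 ± 0.57% (SD, n = 6) in p53-/- and 2.69 ± 0.86% (SD, n = 5) in p53+/+ livers. The mean log2 ratio of 5p to 3p reads was -5.47 ± 0.35 (SD, n = 6) in p53-/- and -5.23 ± 0.44 (SD, n = 5) in p53+/+ livers. The means differed by -0.24 (exact two-sided permutation p = 0.359). Without p53+/+ libraries 1 and 2 the difference was 0.073, in the other direction (exact permutation p = 0.810), and without library 1 alone it was -0.07. With p53-/- libraries 10, 11 and 12 only, those with HA numbers above 500, it was -0.40 (exact permutation p = 0.25). Library scaling cancels in this ratio.

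**Figure D3:**
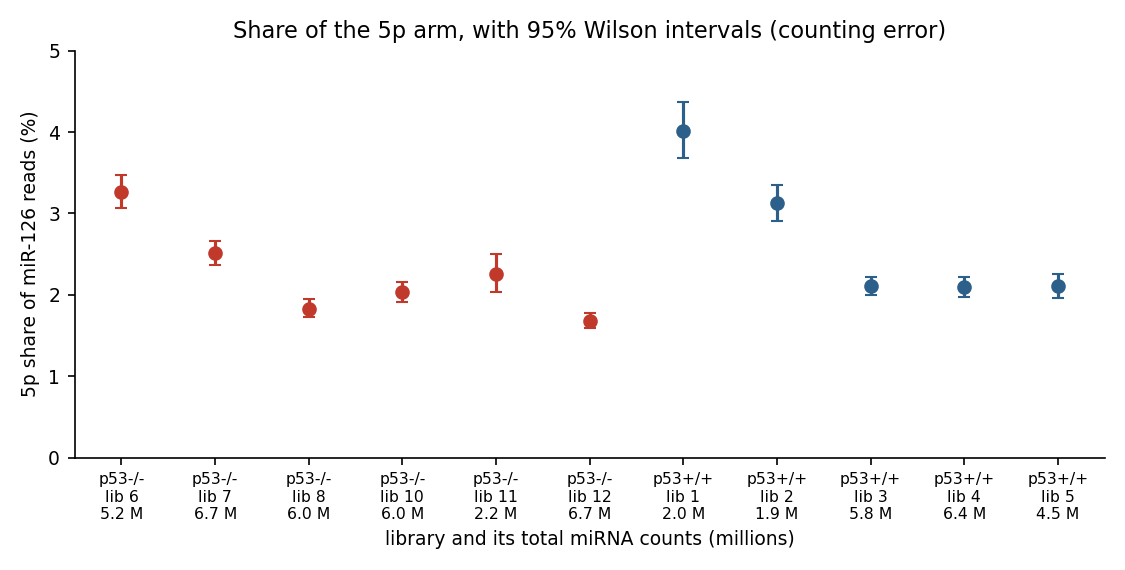
Share of the 5p arm among all miR-126 reads, in percent, for each library with its total count (M on the axis); bars are 95% Wilson intervals for counting error. p53+/+ library 1 is highest at 4.01% and p53-/- library 12 lowest at 1.68%, and p53+/+ libraries 3, 4 and 5 are all at 2.10%.

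Among hairpins with both arms measured, miR-126 was uneven but not extreme. Of 125 such hairpins, 59 had more 3p and 66 more 5p reads. Some of them share a mature arm, whose count then stands for each. The 3p arm of mir-24-1 and of mir-24-2, for example, had the same mean of 7128 counts. What each such hairpin gave is not known, and the 125 are not all independent. The arms of miR-126 come from 1 hairpin. On the log2 scale miR-126 lay at -5.36 averaged over libraries, and 48 hairpins were more uneven. The SD of its log2 ratio between libraries was 0.40, against a median of 0.39 over the 62 hairpins with at least 50 mean counts in both arms, of which 30 varied more. limma called 0 of the 125 ratios as different between genotypes (0%), with 18 at an unadjusted p below 0.05 (14.4%), and the difference for miR-126 had a 95% interval of -0.78 to 0.31 (adjusted p = 0.628 in limma). When the test was limited to the 62 deeper hairpins, 5 passed and miR-126 did not (adjusted p = 0.523 in limma).

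**Figure D4:**
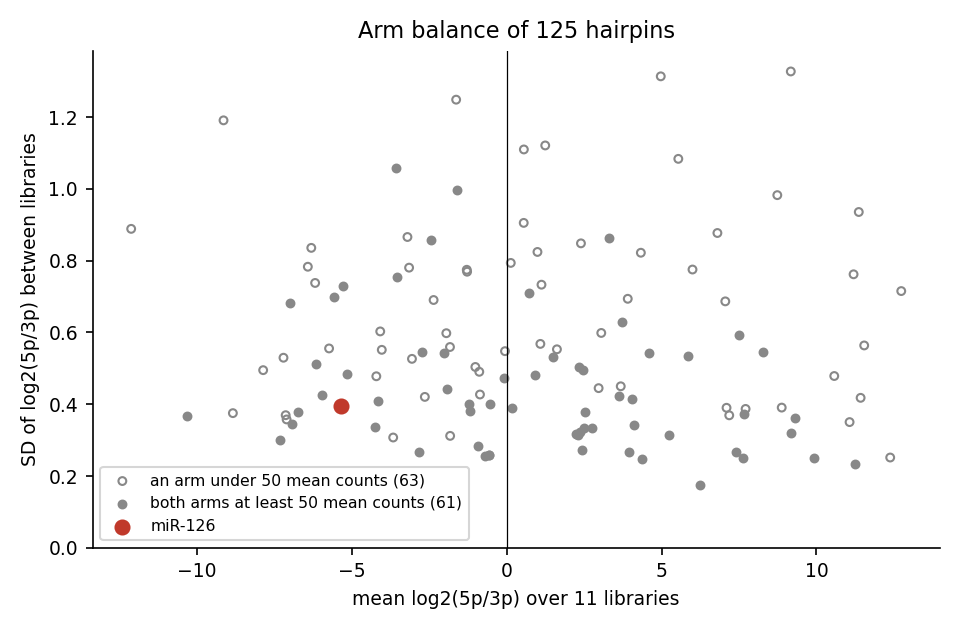
SD between libraries against the mean of the log2 ratio of 5p to 3p reads over 11 libraries, for 125 hairpins; filled grey points have at least 50 mean counts in both arms, open points do not, and miR-126 is red. miR-126 lies at -5.36 with an SD of 0.40, amid the deeper hairpins.

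A correlation between the levels of the arms did not pass a test over the 11 libraries. Pearson's r of their log2 levels over the 11 libraries was 0.42 (permutation p = 0.213) and Spearman's rho 0.48 (permutation p = 0.137), with adjusted p-values of 0.326 for both over a set of 10 correlations. Correlations with a single library left out or with other scalings were not in that set. Without p53-/- library 11 and p53+/+ library 1, the farthest from the median of miR-126-3p, r was 0.45 (exact permutation p = 0.234) and rho 0.65 (exact permutation p = 0.0666). Without p53+/+ libraries 1 and 2, r was 0.59 (exact permutation p = 0.0900) and rho 0.65 (exact permutation p = 0.0666). Within the 6 p53-/- libraries r was 0.49 (exact permutation p = 0.354), and none was computed within the 5 p53+/+ libraries, since correlations were limited to at least 6 libraries. The value over all libraries depended on single libraries. Pearson's r was 0.62 without p53+/+ library 1 (permutation p = 0.0477, not adjusted), 0.24 without p53+/+ library 2 and 0.22 without p53-/- library 11. Both arms share a library's depth and scaling factor, which enter both values. Over the 125 hairpins, some of which share a mature arm, the median r between arms was 0.37, and 53 had a higher r than miR-126.

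**Figure D5:**
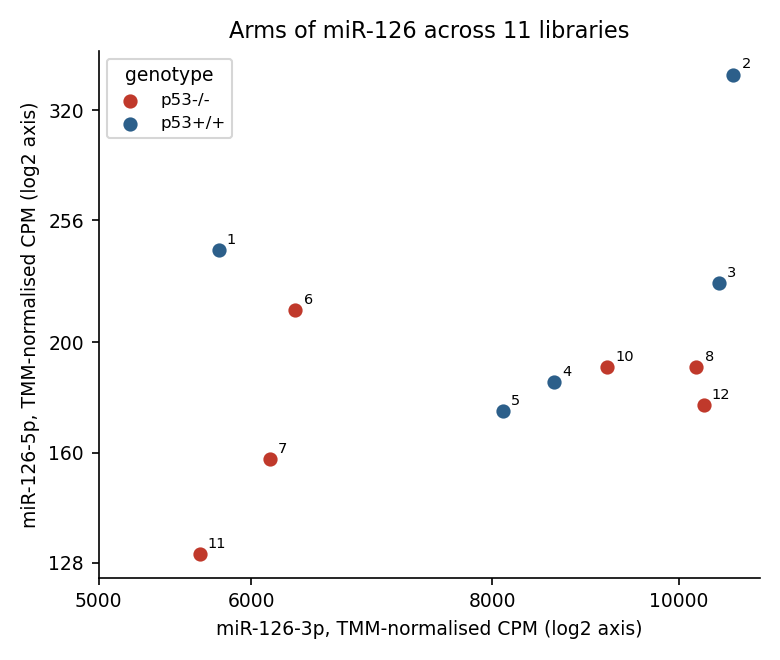
miR-126-5p against miR-126-3p in TMM-normalised CPM, both axes on a log2 scale, 1 point per library with its number, p53-/- in red and p53+/+ in blue. p53+/+ libraries 1 and 2 and p53-/- library 6 lie toward more 5p for their 3p level, and r over all 11 libraries is 0.42.

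Each arm had closer companions than the other arm. Ranked by Pearson's r of log2 level over the 11 libraries among 387 other miRNAs, miR-126-5p was 72nd for miR-126-3p, and miR-126-3p was 85th for miR-126-5p. These r values describe the libraries and carry no test, since the companions were picked as the highest of many and all share depth and scaling.

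The 5 miRNAs most like miR-126-3p were miR-3068-5p (r = 0.85), miR-28a-5p (0.84), miR-24-3p (0.82), miR-106b-5p (0.80) and miR-24-2-5p (0.78). They include both arms of the Mir24-2 hairpin. miR-24-3p, a miRNA of the clusters with miR-23 and miR-27 that is known for roles in vessels, averaged 1408 ± 286 CPM (SD, n = 6) in p53-/- and 1649 ± 627 CPM (SD, n = 5) in p53+/+ livers. It was highest in p53+/+ library 2 at 2707 CPM, where miR-126-3p was also highest, and lowest in p53-/- library 11 at 1072 CPM, where miR-126-3p was also lowest. Its log2 fold change was -0.23 (adjusted p = 0.629 in edgeR), and -0.04 without p53+/+ libraries 1 and 2 (adjusted p = 0.924 in edgeR).

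The 5 most like miR-126-5p were miR-29a-3p (r = 0.93), miR-872-3p (0.88), miR-194-5p (0.88), miR-26a-5p (0.86) and miR-26b-5p (0.86). miR-29a-3p, known to repress collagen genes, averaged 3089 ± 614 CPM (SD, n = 6) in p53-/- and 4616 ± 1368 CPM (SD, n = 5) in p53+/+ livers. Like miR-126-5p it was highest in p53+/+ library 2, at 6841 CPM, next highest in p53+/+ library 1, at 5029.5 CPM, and lowest in p53-/- library 11, at 2286 CPM. miR-26b-5p, whose family is known to restrain growth in liver, averaged 2067 ± 356 CPM (SD, n = 6) in p53-/- and 3165 ± 951 CPM (SD, n = 5) in p53+/+ livers. The log2 fold changes of these 5 ran from -0.61 for miR-26b-5p to -0.38 for miR-872-3p, and none passed (smallest adjusted p = 0.174 in edgeR). Without p53+/+ libraries 1 and 2 they were -0.23 for miR-29a-3p, 0.053 for miR-872-3p, -0.27 for miR-194-5p, -0.10 for miR-26a-5p and -0.21 for miR-26b-5p (smallest adjusted p = 0.508 in edgeR). The value of miR-872-3p thus changed sign. The 5 were picked for following miR-126-5p over these same libraries, so this shift is not separate from that of miR-126-5p.

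The mature sequences of miR-29a-3p, the miR-26 pair and miR-24-3p are printed for comparison with miR-126a-3p above, with bases 2 to 8 in capitals. miR-26a-5p and miR-26b-5p share a seed, and none of these seeds is that of miR-126a-3p.
miR-29a-3p: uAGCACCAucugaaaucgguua
miR-26a-5p: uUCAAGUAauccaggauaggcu
miR-26b-5p: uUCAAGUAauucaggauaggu
miR-24-3p: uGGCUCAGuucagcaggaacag

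RefSeq (GRCm38.p6) places the miR-29a-3p sequence at chr6:31062673-31062694 on the minus strand and miR-26b-5p at chr1:74394324-74394344 on the plus strand. The miR-26a-5p sequence occurs in Mir26a-1 at chr9:119031811-119031832 and in Mir26a-2 at chr10:126995543-126995564, both on the plus strand. That of miR-24-3p occurs in Mir24-1 at chr13:63301251-63301272 and in Mir24-2 at chr8:84208875-84208896, both on the plus strand. The last 2 counts can each come from more than 1 hairpin.

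Other miRNAs with reported roles in endothelium or vessel growth were also not called. Of 27 names on that list, 25 were in the table and 23 were tested, both arms of miR-126b being the listed names without an entry. edgeR called 0 of the 23, with 8 log2 fold changes above 0 and 15 below, a median of -0.18 and a range of -0.65 to 0.67. Over all 388 tested miRNAs the median was -0.01, with 190 above 0 and 198 below. At an unadjusted p below 0.05 there were 3 of the 23, beside the 17.3% of all miRNAs, and DESeq2 called 2 of the 18 it gave an adjusted p, miR-17-5p and miR-20a-5p, beside its 6.80% over all.

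The 4 with the smallest p were all below 0 in p53-/- livers. miR-17-5p, of the growth-promoting miR-17-92 cluster, averaged 138 ± 21.1 CPM (SD, n = 6) in p53-/- and 199.5 ± 30.7 CPM (SD, n = 5) in p53+/+ livers, at -0.53 (adjusted p = 0.174 in edgeR, 0.0254 in DESeq2). miR-20a-5p of the same cluster was at -0.45 (adjusted p = 0.184 in edgeR, 0.0490 in DESeq2). miR-146a-5p, which restrains NF-kappaB signalling, was at -0.57 (adjusted p = 0.190 in edgeR), and miR-19a-3p at -0.65 (adjusted p = 0.327 in edgeR). The last, also of the miR-17-92 cluster, had a low level, 3.29 ± 1.20 CPM (SD, n = 6) in p53-/- and 5.31 ± 1.87 CPM (SD, n = 5) in p53+/+ livers. DESeq2 gave it no adjusted p. Without p53+/+ libraries 1 and 2 the 4 were at -0.44, -0.42, -0.55 and -0.39 in that order (smallest adjusted p = 0.340 in edgeR). The miR-17-92 cluster did not move as a whole. Its member miR-92a-3p, also on the list, went the other way, at 0.24 (adjusted p = 0.496 in edgeR). It averaged 8880 ± 826 CPM (SD, n = 6) in p53-/- and 7536 ± 1674 CPM (SD, n = 5) in p53+/+ livers.

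miR-126 itself is the endothelial marker of this measurement, and no second miRNA marks endothelium alone, so the cell type could not be checked on other markers. Lists for the other cells a liver sample can hold gave the following sums. The 6 hepatocyte miRNAs summed to between 487603 and 844737 CPM in p53-/- and between 507052 and 706384 CPM in p53+/+ libraries. Most of this was miR-122-5p, at 435040 to 769332 CPM in p53-/- and 450526 to 625607 CPM in p53+/+. Its log2 fold change was 0.16 (adjusted p = 0.624 in edgeR). That of miR-194-5p, on the same list and a companion of miR-126-5p, was -0.52 (adjusted p = 0.190 in edgeR). The 6 leukocyte miRNAs summed to 227 to 346 CPM in p53-/- and 186 to 305 CPM in p53+/+, and the 5 of red cells to 594 to 1347 CPM and 531 to 1407 CPM. The 8 names listed for stellate and mesenchymal cells summed to 6278 to 7282 CPM in p53-/- and 5531 to 9654 CPM in p53+/+. They include miR-199a-3p and miR-199b-3p. The 3p arms of the hairpins mir-199a-1 and mir-199b had the same mean of 3011 counts. Reads shared by these names enter the sum under each name, so the sum overstates the level of the distinct miRNAs. All 6 biliary and epithelial and all 4 pancreas miRNAs were detected, at 829 to 2453 CPM and 6.74 to 27.5 CPM in p53-/-, and at 1096 to 2994 CPM and 2.86 to 410.2 CPM in p53+/+. Of 6 striated muscle miRNAs 4 were detected, with miR-208a-3p and miR-208b-3p at 0, at 4.44 to 40.9 CPM in p53-/- and 4.29 to 45.8 CPM in p53+/+. The part of cell composition in the miR-126 values was not tested.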

How the data were processed

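Small RNA of mouse liver was measured in 6 p53-/- and 5 p53+/+ libraries, all of G4 telomerase-knockout mice. Raw read counts were deposited for each mature arm of each hairpin (1418 entries, 1281 names). The authors also deposited CPM, which on recomputation are these counts over the sum of all entries (to within 0.005). GRCm38 and limma are named, without a role, per the submitters' processing notes; aligner, counter and adapter trimming: not given in the sources used here. Libraries were made with an Illumina kit, per the labels' protocols. Where a name had several hairpins its highest count was used, which bears on neither arm of miR-126 (1 hairpin). Since the strand used in counting is not given, whether reads of the antisense Mir126b entered the miR-126 counts could not be checked.

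Genotypes were compared with edgeR 4.0.16 (quasi-likelihood test, TMM, filterByExpr, Benjamini-Hochberg adjustment over 388 miRNAs, threshold 0.05). Arm ratios of 125 hairpins were compared with limma 3.58.1 (pseudocount 0.5), single values with exact permutation tests in scipy 1.17.1 (the 2-sided p doubles the smaller tail), correlations with 100000 permutations (exact below 10 libraries). DESeq2 1.42.0 and limma-voom were alternatives. In a library, 3 counts, the limit that a count of 0 allows, stood for 0.449 to 1.57 CPM; intervals cover counting error only, since reads carry no molecular identifiers. The members and lists were chosen with earlier results of these data known. Named miRNAs were both arms, the 5 most alike to each by r, the 4 vascular list members with the smallest p, miR-34a-5p and miR-122-5p, the largest share of counts (56.4% on average).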

Additional observations from a re-analysis of the deposited data

Results flagged for a closer look

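Values of a library that stood far from the rest of its genotype were searched for in 40 sets of 5 or 6 libraries, and chance alone flags about 1 in 20. The search gave 3 flags, too few to set apart from that rate. No level or share of miR-126 itself stood out in this way. Of its companions, miR-106b-5p was low in p53+/+ library 1, at 11.4 CPM against 19.8 to 22.1 CPM in the other 4. In the same library miR-24-2-5p was low, at 40.0 CPM against 75.5 to 88.6 CPM in the other 4. miR-194-5p was high in p53+/+ library 2, at 9456 CPM against 4789 to 6139 CPM in the other 4. These are the shallow p53+/+ libraries in which the 5p share of miR-126 was also high, and the part of depth was not tested. The companions were picked for following an arm of miR-126 over these same libraries, so their flags are not independent of its levels.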

How the results depend on the processing

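No paired analysis was possible because the replicate numbers of the titles run on across the genotypes and share no number. Under 8 alternatives of scaling, tool, filter, hairpin copies and libraries, miR-126-3p kept a log2 fold change below 0 (-0.19 to -0.08) and miR-126-5p did too (-0.52 to -0.09), and neither passed; with each library left out they ran from -0.26 to -0.04 and from -0.52 to -0.25, again without a pass. DESeq2 called 17 miRNAs over all and 2 of the vascular list, in place of 1 and 0 in edgeR. With each library left out, edgeR called 1 over all and 0 of the vascular list. The number of hairpins with a changed arm ratio was 5 when both arms needed at least 50 mean counts, in place of 0, and 0 to 1 with a library left out. The arm ratio difference of miR-126 turned to 0.073 without p53+/+ libraries 1 and 2, was -0.40 with only the p53-/- libraries of HA numbers above 500, and ran from -0.35 to -0.07 with a single library left out. The correlation between arms ran from 0.22 to 0.62 with a library left out, passing an unadjusted 0.05 without p53+/+ library 1, and from 0.35 to 0.59 in 5 other settings. The causes of these changes were not tested. For other named miRNAs, leaving out p53+/+ libraries 1 and 2 was chosen after seeing the data; miR-872-3p then turned to 0.053, and no call among them changed. The 5p arm rests on 357 to 1345 reads per library.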

Other observations

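The order of the libraries by miR-126-3p depended on the scale. On the TMM scale 4 libraries lay at or below 6325 CPM and the other 7 at or above 8101 CPM, a gap of 1.28-fold with both genotypes on each side. On the deposited CPM scale the widest gap was 1.16-fold, between the lowest library and the next, so the separation was not seen there. The highest library was p53+/+ 2 on both scales, at 10668 and 11122 CPM. The lowest was p53-/- 11 at 5640.5 CPM after TMM scaling and p53-/- 6 at 4857 CPM as deposited. The TMM factors of those 2 libraries were the extremes of the series, 1.24 for p53-/- 11 and 0.832 for p53-/- 6. For miR-126-5p, p53+/+ libraries 2, 1 and 3 were the 3 highest on both scales, and the lowest was p53-/- 11 at 130.3 CPM after TMM scaling and p53-/- 7 at 145 CPM as deposited.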
